A study of Mus musculus with 13 samples.

Results

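Killer lymphocytes carry a set of genes for destroying other cells by contact, and 10 of them were followed across 5 sorted mouse T cell populations. They were the granzyme genes *Gzma*, *Gzmb*, *Gzmc*, *Gzmk* and *Gzmm*, the perforin gene *Prf1*, the serglycin gene *Srgn*, the granzyme inhibitor genes *Serpinb9* and *Serpinb6b*, and the death ligand gene *Fasl*. Each was taken by its gene symbol from the count tables, which listed 24417 named genes. *Gzmc* had 0 counts in all 13 libraries, and the other 9 had at least 1 count in some library and passed the filter on low counts.

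The cells were sorted from spleen and lymph nodes of C57BL/6 mice, and their RNA was amplified and sequenced in bulk. *Foxp3*, a gene of the X chromosome, encodes the transcription factor that Treg cells depend on. Treg “wannabes” are cells that switch on the *Foxp3* locus but carry a Foxp3LSL allele, in which a Thy1.1 reporter and a STOP cassette between loxP sites prevent the protein from being made. All 8 male libraries came from mice analyzed at an age of 21 days that had all been given 4-hydroxytamoxifen on day 14, and all 5 female libraries from mice labelled 9 to 11 weeks old that had all been given diphtheria toxin repeatedly between 7 and 1 days before analysis.

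Control Treg cells (3 libraries) were from healthy Foxp3DTR-GFP/yCd4creERT2 males, whose functional *Foxp3* allele also encodes the diphtheria toxin receptor and GFP. Rescued Treg cells (3 libraries) were from Foxp3LSL/yCd4creERT2 males, in which a Cre recombinase expressed from the *Cd4* gene and activated by 4-hydroxytamoxifen removes the STOP cassette after inflammation has developed. Treg “wannabes” of males (2 libraries) were from Foxp3LSL/yCd4wt mice, which lack the recombinase, have no functional Treg cells and stay sick. Resting Treg “wannabes” (3 libraries) were from Foxp3LSL/WTCd4wt females, in which Treg cells of the WT allele remain. Activated Treg “wannabes” (2 libraries) were from Foxp3LSL/DTRCd4wt females, in which the toxin removes the Treg cells that express the receptor. The libraries of a group came from separate mice. Sex, age and experiment differed together between the males and the females and cannot be told apart, so levels are set side by side across them without a test. In bulk RNA, fewer cells that express a gene and less of its RNA per cell cannot be told apart.

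Cytotoxic granules hold granzymes, serine proteases that are bound to the proteoglycan serglycin and released towards a target cell. Perforin makes the pores through which granzymes enter, and inside the target granzyme B cuts caspases and Bid and so starts apoptosis. Serpins of clade B act in the cytosol, where Serpinb9 inhibits granzyme B and can protect a cell from its own granzyme. Fas ligand starts apoptosis by a separate route, through the receptor Fas. Treg cells can make granzyme B, which has been implicated in their suppression of other cells.

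Total counts lay between 25558402 and 36660933 per library. The *Foxp3* normalized counts, which are counts scaled by TMM library size within each experiment, were 28381, 29816 and 36405 in rescued Treg cells, 5479, 7061 and 8264 in control Treg cells and 2762 and 3273 in the male “wannabes”. In the females they were 2073, 1999 and 2229.7 in resting and 1568 and 1728 in activated “wannabes”. The *Thy1* normalized counts lay between 1194 and 1531 in the 6 Treg libraries and between 5215 and 10717 in the 7 “wannabe” libraries, without overlap. Summed over 7 T cell markers, CPM, which are counts scaled to library size, lay between 4053 and 4304 in control Treg cells, 3577 and 3974 in rescued Treg cells, 4216 and 5463 in male, 4620 and 4981 in resting and 4022 and 4139 in activated “wannabes”. Of these markers 3 were lower in activated than in resting “wannabes” (*Cd28*, *Cd247* and *Cd3e*, with log2 fold changes of -0.84, -0.40 and -0.29), beside 11.2% of all genes. Compared with male “wannabes”, 1 of 7 was lower in rescued Treg cells, and 1 was higher and 1 lower in control Treg cells. Raw *Cd4* counts were 12465 to 15705 in control Treg cells, 12606 to 18299 in rescued Treg cells and 33762 to 41766 in male “wannabes”. The gate excluded CD8+ and NK1.1+ cells, and the 2 CD8 markers summed to between 9.71 and 27.8 CPM. The 5 B cell markers summed to 31.9 to 44.1 CPM in males, 9.80 to 12.1 in resting and 22.5 to 24.7 in activated “wannabes”. Of 2 tested in females, 1 was higher in activated cells. The 7 myeloid markers summed to 4.20 to 10.8 CPM in control Treg cells, 1.78 to 8.55 in rescued Treg cells and 1.15 to 1.83 in male “wannabes”, and 1 of 5 tested, *Itgam*, was higher in control Treg cells than in “wannabes” (log2 4.03, adjusted p = 0.0256). The part of these marker shifts in the differences between groups was not tested.

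The promoters of *Gzmb* and *Gzma*, the granzyme genes called in both experiments and of both inhibitor genes, called in the females, are printed to set their sequences side by side. Each window runs from 250 bases before to 50 bases after the RefSeq start site on GRCm38.p6, written along the strand of the gene. Capitals mark matches to 4 short motifs searched on both strands, the AP-1 motif TGANTCA, the cyclic AMP response element core TGACG, the Runx motif TGTGGT and the STAT motif TTCNNNGAA.
Gzmb (chr14:56262285-56262584, minus strand): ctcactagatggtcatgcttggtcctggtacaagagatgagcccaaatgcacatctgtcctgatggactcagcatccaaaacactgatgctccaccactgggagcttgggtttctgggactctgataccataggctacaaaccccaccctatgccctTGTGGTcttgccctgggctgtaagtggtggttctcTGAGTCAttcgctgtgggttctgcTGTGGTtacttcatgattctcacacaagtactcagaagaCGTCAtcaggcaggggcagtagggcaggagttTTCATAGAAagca
Gzma (chr13:113100932-113101231, minus strand): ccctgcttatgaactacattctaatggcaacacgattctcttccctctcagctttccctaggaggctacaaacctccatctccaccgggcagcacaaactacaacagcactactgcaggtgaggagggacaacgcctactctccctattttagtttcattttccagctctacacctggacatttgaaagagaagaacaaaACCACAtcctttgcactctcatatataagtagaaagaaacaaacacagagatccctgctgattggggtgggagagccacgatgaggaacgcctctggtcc
Serpinb9 (chr13:33004291-33004590, plus strand): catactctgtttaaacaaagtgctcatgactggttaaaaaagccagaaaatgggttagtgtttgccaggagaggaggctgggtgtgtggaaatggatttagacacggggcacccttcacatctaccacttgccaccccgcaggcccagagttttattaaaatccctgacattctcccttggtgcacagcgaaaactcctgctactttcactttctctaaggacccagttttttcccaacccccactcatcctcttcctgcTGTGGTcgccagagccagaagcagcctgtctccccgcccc
Serpinb6b (chr13:32965011-32965310, plus strand): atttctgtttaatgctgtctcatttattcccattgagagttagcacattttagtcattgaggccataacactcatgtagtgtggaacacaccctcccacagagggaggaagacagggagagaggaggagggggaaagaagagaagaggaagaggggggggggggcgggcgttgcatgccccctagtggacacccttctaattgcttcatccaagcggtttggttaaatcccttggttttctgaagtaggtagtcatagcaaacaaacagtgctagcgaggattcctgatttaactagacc

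The RefSeq start was that of the GENCODE M21 gene for *Gzma*, lay upstream of the GENCODE gene for *Gzmb* and lay inside it for *Serpinb9* and *Serpinb6b*. The *Gzmb* window held all 4 motifs. Its AP-1 match lay 58 to 52 bases before the start site, and Runx matches lay on either side of it, at 93 to 88 and at 34 to 29 bases before the start site. A cyclic AMP response element core and a STAT match followed the start site, at bases 6 to 10 and 38 to 46. The *Gzma* window held only a Runx match, 50 to 45 bases before the start site, and the *Serpinb9* window only a Runx match after it, at bases 11 to 16. None of the 4 motifs was found in the *Serpinb6b* window. No match in these windows overlapped another. Among 32851 RefSeq promoters of the same length, 7.81% held the AP-1 motif, 20.8% the cyclic AMP response element core, 16.8% the Runx motif and 8.30% the STAT motif, and 1.42% held both AP-1 and Runx motifs. A match describes the letters of the window and is not evidence of binding.

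Several of the genes are neighbours. In the GENCODE M21 annotation of GRCm38, *Serpinb6b* (chr13:32965209-32979067) and *Serpinb9* (chr13:33003250-33017957) lie 24182 bases apart on the plus strand of chromosome 13. *Gzma* (chr13:113093825-113100981) and *Gzmk* (chr13:113171608-113225908) lie 70626 bases apart on the minus strand of the same chromosome, and *Gzmb* (chr14:56258838-56262260) lies 24181 bases from the undetected *Gzmc* (chr14:56231441-56234656). *Prf1* (chr10:61297833-61304680), *Srgn* (chr10:62493833-62527451) and *Gzmm* (chr10:79689020-79695261) are spread over chromosome 10, and *Fasl* (chr1:161780689-161788495) is on chromosome 1. All 10 are annotated as protein coding. *Gzmk* is overlapped on the opposite strand by *Esm1*, with 0 shared exonic bases.

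Differential expression was tested with edgeR's quasi-likelihood test on the counts of all genes, with Benjamini-Hochberg adjustment over the genes tested, and a gene was called at an adjusted p under 0.05. Rescued and control Treg cells were compared to ask how restored Treg cells in inflamed mice differ from Treg cells of healthy mice. *Gzma*, *Gzmb* and *Srgn* were called higher in rescued Treg cells, and 0 members were called lower. For *Gzma* and *Gzmk* the control Treg libraries alone would not have passed the filter on low counts, so a difference was built into their being tested. Of the other 7 members 2 were higher (*Gzmb* and *Srgn*), 0 were lower and 5 did not pass. Among all 14925 genes tested, 2.30% were called, 1.43% higher and 0.864% lower. The median log2 fold change was 0.80 over those 7 members and -0.03 over all genes.

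**Figure D1:**
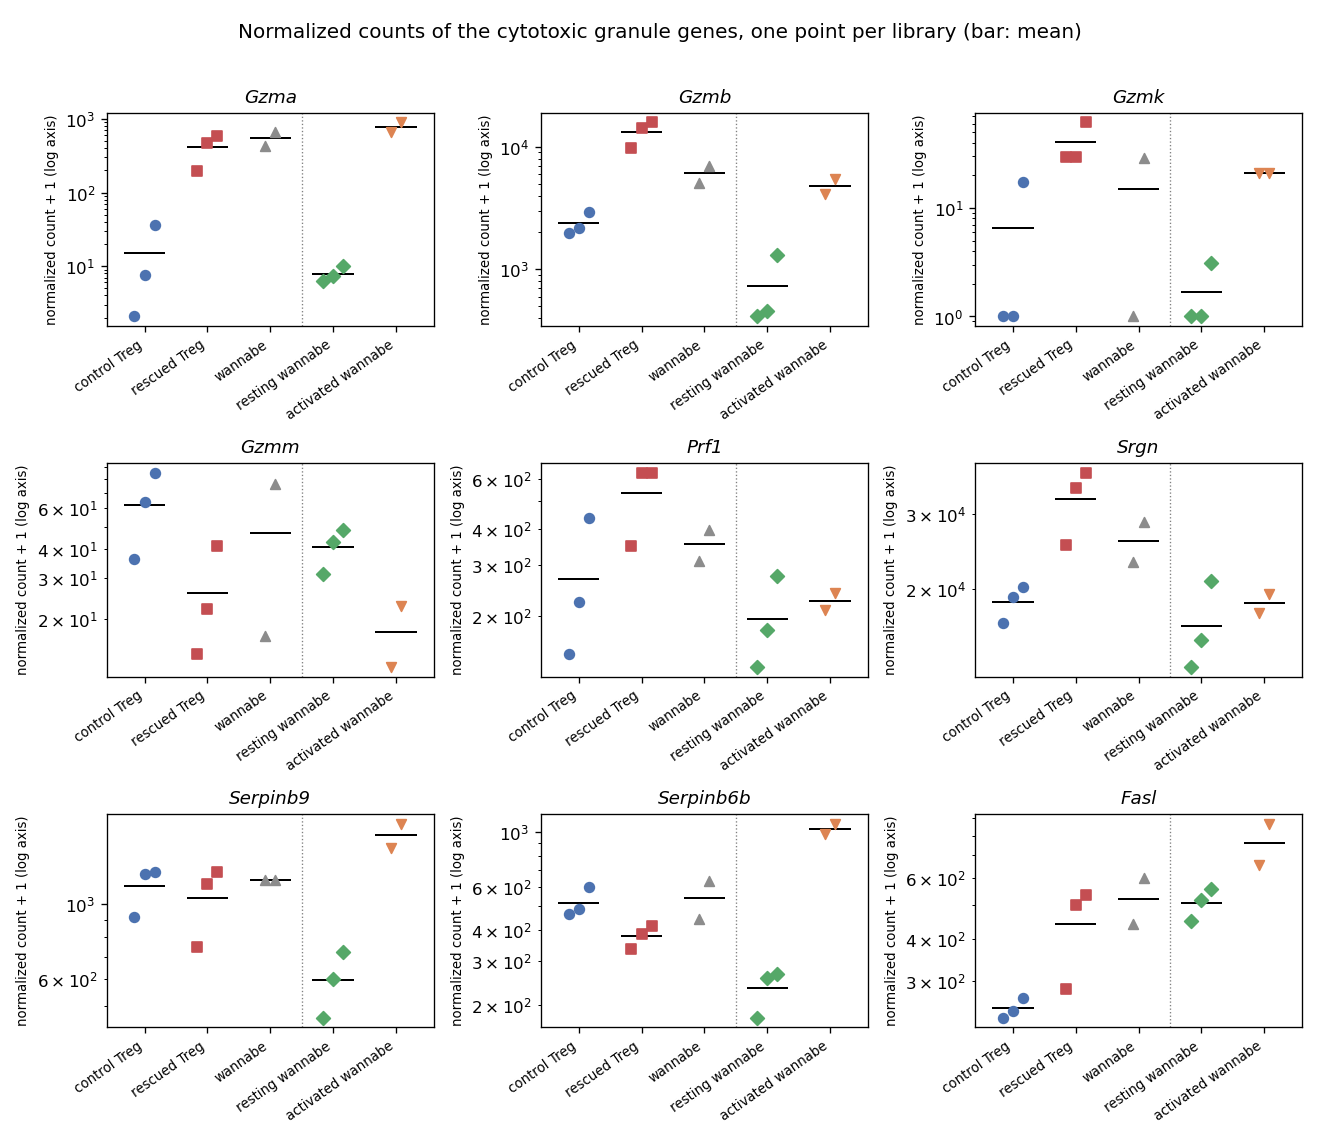
Normalized counts of the 9 detected members plus 1 on log axes, in the 3 male and, right of the dotted line, the 2 female populations. Each point is a library and each bar the mean of a group, and axes differ between genes. *Gzma* and *Gzmb* were highest in the cells of inflamed mice (rescued Treg, male “wannabe” and activated “wannabe”), while the *Serpinb9* and *Serpinb6b* libraries did not overlap between the female groups and *Serpinb9* overlapped among the males.

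*Gzmb* encodes granzyme B, the main caspase-cleaving granzyme, and was the granzyme with the highest level per kilobase of exon in every library. Its normalized counts were 2961, 2175 and 1992 in control Treg cells, 14164, 15871 and 9855 in rescued Treg cells and 5115 and 7045 in male “wannabes”. The 3 male populations did not overlap, with control Treg cells lowest, “wannabes” between and rescued Treg cells highest. The rise in rescued over control Treg cells was 5.60-fold (log2 fold change 2.48, SE 0.23, adjusted p = 0.000613), and it was called without any 1 of the 8 male libraries. In rescued Treg cells *Gzmb* was also 2.19-fold higher than in “wannabes” (log2 1.13, SE 0.25, adjusted p = 0.0124). Without “wannabe” replicate 1 this second call was lost (adjusted p = 0.0677). Control Treg cells had 2.56-fold less *Gzmb* than “wannabes” (log2 -1.36, SE 0.24, adjusted p = 0.00399). These 3 comparisons share libraries and are not independent.

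In females, the *Gzmb* normalized counts were 1321, 456 and 411 in resting and 4114 and 5462 in activated “wannabes”. All activated libraries were above all resting libraries, and resting replicate 1 stood apart from the other resting libraries. The rise was 6.57-fold (log2 2.72, SE 0.50, adjusted p = 0.0126), and 3.47 on the log2 scale without resting replicate 1. The call was lost without either activated library, with an adjusted p of 0.0635 without replicate 1 and 0.0901 without replicate 2.

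*Gzma* encodes granzyme A, a trypsin-like granzyme that cuts after basic residues. Its normalized counts were 1.07, 34.7 and 6.61 in control Treg cells, 196, 472 and 593 in rescued Treg cells and 661 and 427 in male “wannabes”. Control Treg cells had raw counts of 1, 38 and 7, while the other male groups overlapped each other at levels far above. The rise in rescued over control Treg cells was 29.0-fold (log2 4.86, SE 0.85, adjusted p = 0.0159). It was 6.69 on the log2 scale without control replicate 2, which held most of the control counts, and its call was lost without rescued replicate 3 (adjusted p = 0.0507) or control replicate 3 (adjusted p = 0.0722). Against “wannabes”, control Treg cells were 37.6-fold lower (log2 -5.23, SE 0.89, adjusted p = 0.0034; log2 -7.06 without control replicate 2), and rescued Treg cells did not pass the test (log2 -0.37, 95% interval -2.08 to 1.33, adjusted p = 0.803).

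In females, the *Gzma* normalized counts were 5.26, 9.17 and 6.23 in resting and 897 and 659.6 in activated “wannabes”. The difference was 111-fold (log2 6.79, SE 0.28, adjusted p = 0.000249), and it was called without any 1 of the 5 female libraries. *Gzma* passed the filter through its high groups, since 0 of 3 resting and 1 of 3 control Treg libraries reached it. With no filter its adjusted p was 0.000252 in females, 0.000448 for rescued against control Treg cells and 8.36e-05 for control Treg cells against male “wannabes”.

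Markers of NK cells, which make granzyme A, were counted beside these values. Summed over the 10 markers, they reached 0.621 to 1.38 CPM in control Treg cells, 3.74 to 10.5 in rescued Treg cells and 4.93 to 7.06 in male “wannabes”. In the females the sums were 2.13 to 3.08 CPM in resting and 2.71 to 4.08 in activated “wannabes”. In each of these groups 4 to 7 of the 10 markers were at 0 in every library, and 4 Ly49 receptor genes of the list were at 0 in all 13. The defining marker *Ncr1* had 0, 51 and 55 raw counts in rescued Treg replicates 1 to 3 and 0 in the control Treg and male “wannabe” libraries, and 2 and 3 in the activated libraries. Among the rescued libraries, both with counts of *Ncr1* had more *Gzma* (472 and 593 normalized counts) than the library without (196). Rescued replicate 1 and both male “wannabe” libraries, with *Gzma* at 196, 661 and 427, had 0 counts of *Ncr1*, 12, 8 and 7 raw counts of *Tyrobp*, an adaptor of NK and myeloid receptors, and 107, 161 and 208 of *Klrb1c*, which encodes NK1.1. Rescued replicates 2 and 3 had 51 and 28 raw counts of *Tyrobp* and 121 and 48 of *Klrb1c*. Of the other listed markers, *Klre1* had 0, 14 and 28 raw counts in rescued replicates 1 to 3. There *Klri2* had 0, 8 and 12 and *Fcer1g* 11, 21 and 37. The control Treg libraries had 15 to 46 raw counts of *Klrb1c*, 0 to 5 of *Tyrobp*, 0 to 4 of *Fcer1g* and 0 of *Klre1* and *Klri2*. None of 6 NK markers tested was called between rescued and control Treg cells, and *Klrb1c* was lower in control Treg cells than in “wannabes” (log2 -2.85, adjusted p = 0.0264). The part of NK cells in the *Gzma* values was not tested.

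*Gzmk* encodes granzyme K, a tryptase-like granzyme, and was near the limit of detection. It had raw counts of 0, 18 and 0 in control Treg cells, 30, 22 and 66 in rescued Treg cells and 0 and 26 in male “wannabes”. All rescued libraries were above all control libraries, but the fitted differences did not pass the test in males (rescued against control, log2 2.80, SE 1.96, adjusted p = 0.557). In females the raw counts were 0, 0 and 2 in resting and 21 and 21 in activated “wannabes”. The summed counts of 42 against 2, scaled to library size, gave a ratio of 28.9 with a 95% exact interval of 7.51 to 246 that covers counting error only. Since no resting library reached the filter on low counts, *Gzmk* could be tested only because it was high in activated cells, and its adjusted p of 0.0205 is given as a description. It was 0.0403 with no filter, 0.125 without activated replicate 1 and 0.131 without activated replicate 2.

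*Gzmm* encodes granzyme M, a granzyme that cuts after methionine and leucine, and had few counts. Its normalized counts lay between 35.4 and 84.0 in control Treg cells and between 13.2 and 40.2 in rescued Treg cells, with overlap. In females they were 30.1 to 47.3 in resting and 11.5 to 21.7 in activated “wannabes”, without overlap. Neither difference passed the test, with log2 fold changes of -1.29 (adjusted p = 0.576) and -1.25 (adjusted p = 0.109). *Gzmc* had 0 counts in every library, which by counting error alone allows a share of at most 8.18e-06 to 1.17e-05 percent of the counts of a library, as 3 counts would give. *Vamp7*, a granule exocytosis gene, also had 0 counts in all 13 libraries, and losses of reads in assigning them to genes were not tested. Of the other granzyme genes *Gzmd*, *Gzme*, *Gzmf*, *Gzmg* and *Gzmn*, 1 passed the filter in males and 0 in females, and 0 were called.

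To compare different genes, levels were divided by the length of their annotated exons and given as CPM per kilobase over all 13 libraries. On this scale *Gzmb* made up 75.7% to 98.8% of the summed signal of the 5 granzyme genes in each library. Mean *Gzmb* levels per kilobase, with the SD over the libraries of a group, were 278 ± 62.6 for rescued Treg, 124 ± 29.7 for male “wannabe”, 116 ± 23.6 for activated “wannabe”, 49.4 ± 10.6 for control Treg and 17.7 ± 12.3 for resting “wannabe” cells. Neighbours in this order did not overlap, except that male and activated “wannabes” did. The order for *Gzma* was different, with activated “wannabes” highest at 27.0 ± 5.71, above male “wannabes” at 15.7 ± 4.56 without overlap. Rescued Treg cells at 12.6 ± 6.20 overlapped male “wannabes”, and control Treg cells at 0.419 ± 0.534 and resting “wannabes” at 0.240 ± 0.0728 overlapped at the bottom. *Gzma* was thus 14.6% and 23.6% of the granzyme signal in activated “wannabes”, 15.5% and 7.85% in male “wannabes” and 1.93% to 7.85% in rescued Treg cells.

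*Srgn* encodes serglycin, the proteoglycan core on which granzymes are stored, and was the most abundant member per kilobase. The *Srgn* normalized counts were 20142, 16570.1 and 19161 in control Treg cells, 34691, 37572 and 25344 in rescued Treg cells and 28809 and 23076 in male “wannabes”. Every rescued library was above every control library, and rescued Treg cells and “wannabes” overlapped. The rise was 1.75-fold (log2 0.80, SE 0.17, adjusted p = 0.0308). This call was lost without control replicate 1 (adjusted p = 0.102), 2 (0.141) or 3 (0.105), or without rescued replicate 1 (0.128) or 2 (0.0921). In females the normalized counts were 15088, 20859.7 and 13049.7 in resting and 19403 and 17562 in activated “wannabes”, with overlap, and the difference did not pass the test (log2 0.18, 95% interval -0.28 to 0.63, adjusted p = 0.532). It was called without resting replicate 2 (log2 0.39, adjusted p = 0.0436).

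*Prf1*, the gene of the pore-forming protein perforin, did not pass the test in any comparison. The *Prf1* normalized counts were 436, 222 and 146 in control Treg cells, 348, 627 and 626 in rescued Treg cells and 309 and 397 in male “wannabes”. Rescued Treg cells were higher on average by 1.00 on the log2 scale (95% interval 0.07 to 1.92, adjusted p = 0.273), but control replicate 1 lay within their range. The female counts were 178, 131 and 274 in resting and 209 and 239 in activated “wannabes”, with a log2 fold change of 0.20 (95% interval -0.56 to 0.97, adjusted p = 0.68). Per kilobase, mean *Prf1* levels lay between 2.63 and 6.22 CPM over the 5 groups, and each group overlapped the next in order.

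*Fasl* encodes Fas ligand, the death ligand that T cells place on their surface. Its normalized counts were 234, 245 and 268 in control Treg cells, 502, 534 and 284 in rescued Treg cells and 600.5 and 439 in male “wannabes”. Control Treg cells were below both other male groups without overlap, by 0.82 on the log2 scale against rescued Treg cells (adjusted p = 0.242) and by 1.06 against “wannabes” (adjusted p = 0.0655), and neither difference was called. In females the counts were 450.2, 518 and 556 in resting and 657 and 867 in activated “wannabes”, also without overlap (log2 0.58, adjusted p = 0.051). The control-against-“wannabe” difference was called without rescued replicate 3 (adjusted p = 0.0453).

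*Serpinb9* encodes a cytosolic inhibitor of granzyme B and *Serpinb6b* a related clade B serpin. *Serpinb9* normalized counts were 1246, 1229 and 916 in control Treg cells, 745, 1144 and 1249.7 in rescued Treg cells and 1183 and 1176 in male “wannabes”. The 3 male groups overlapped, and the rescued-against-control difference was -0.11 on the log2 scale (95% interval -0.65 to 0.43, adjusted p = 0.895). In females, the counts were 461, 599 and 722 in resting and 1469.6 and 1736 in activated “wannabes”. All activated libraries were above all resting libraries, by 1.43 on the log2 scale (SE 0.19, adjusted p = 0.00422), and the difference was called without any 1 of the 5 libraries.

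*Serpinb6b* normalized counts were 466, 487 and 598 in control Treg cells, 416, 336 and 386 in rescued Treg cells and 443 and 633 in male “wannabes”. Each rescued library was below each library of both other male groups, by 0.45 on the log2 scale against control Treg cells (95% interval of the difference -1.05 to 0.16, adjusted p = 0.483) and by 0.50 against “wannabes” (adjusted p = 0.31), and neither difference passed. In females the counts were 255, 176 and 265 in resting and 977 and 1079.7 in activated “wannabes”. The activated libraries were higher by 4.43-fold (log2 2.15, SE 0.20, adjusted p = 0.00111), without overlap and in each fit that left out a library.

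**Figure D2:**
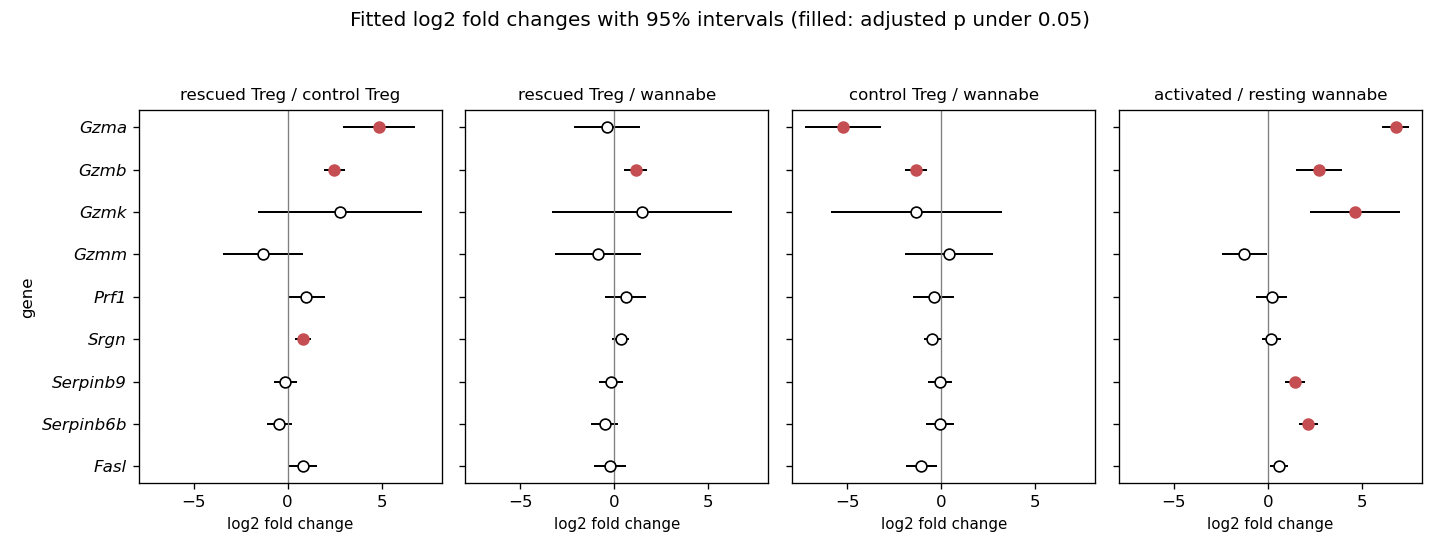
Fitted log2 fold changes of the 9 members tested in 4 comparisons, with 95% intervals as lines and filled points where the adjusted p was under 0.05. In the rescued-against-control panel *Gzma*, *Gzmb* and *Srgn* are filled, and in the activated-against-resting panel *Gzma*, *Gzmb*, *Gzmk*, *Serpinb9* and *Serpinb6b*.

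Between activated and resting “wannabes”, *Gzma* and *Gzmk* were likewise below the filter in the lower group. Of the other 7 members 3 were called, all higher in activated cells (*Gzmb*, *Serpinb9* and *Serpinb6b*), with a median log2 fold change of 0.58 against -0.01 over all genes. Of all 13166 genes tested 22.5% were called, 11.3% higher and 11.2% lower. Between rescued Treg cells and male “wannabes” only *Gzmk* was below the filter in the lower group, and 1 of the other 8 members was called, *Gzmb*, with a median of -0.21 against 0 over all genes. The background was 14.1% of all genes (10.0% higher, 4.06% lower), and the *Gzmb* call was lost without “wannabe” replicate 1. Control Treg cells were lower than “wannabes” in 1 of the 7 members other than *Gzma* and *Gzmk*, which was *Gzmb*, with a median of -0.40 against 0.09 over all genes. There 16.2% of all genes were called (9.92% higher, 6.27% lower). The 3 male comparisons share libraries.

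The difference between both Treg groups was then set against that between both female “wannabe” groups, as a contrast over all 13 libraries. Of the 9 members 2 were called, *Serpinb6b* and *Serpinb9*, both in the direction of a smaller change in Treg cells, against 1.53% of 15201 genes (0.803% higher, 0.730% lower). The difference was -2.58 on the log2 scale for *Serpinb6b* (SE 0.34, adjusted p = 0.00267) and -1.53 for *Serpinb9* (SE 0.34, adjusted p = 0.0452). The *Serpinb6b* call held without any 1 of the 13 libraries. The *Serpinb9* call held in 5 of 13 such fits and was lost without control replicate 1 (adjusted p = 0.0879) or 2 (0.0764), rescued replicate 1 (0.0565) or 2 (0.0674), resting replicate 1 (0.103) or 2 (0.0918), or activated replicate 1 (0.126) or 2 (0.241). The median difference was -0.22 over all 9 members and -0.03 over all genes. Those 9 include *Gzma* (-1.92) and *Gzmk* (-1.82), whose lower groups were below the filter in both experiments, and no median was taken without them.

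No such difference passed for the granzymes. It was -0.22 for *Gzmb* (95% interval -1.39 to 0.94, adjusted p = 0.932) and -1.92 for *Gzma* (95% interval -4.21 to 0.36, adjusted p = 0.473), which are wide intervals. For *Prf1* it was 0.81 (adjusted p = 0.644) and for *Srgn* 0.64 (adjusted p = 0.31). Sex, age, experiment and *Foxp3* state all differed between the changes compared and cannot be told apart.

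**Figure D3:**
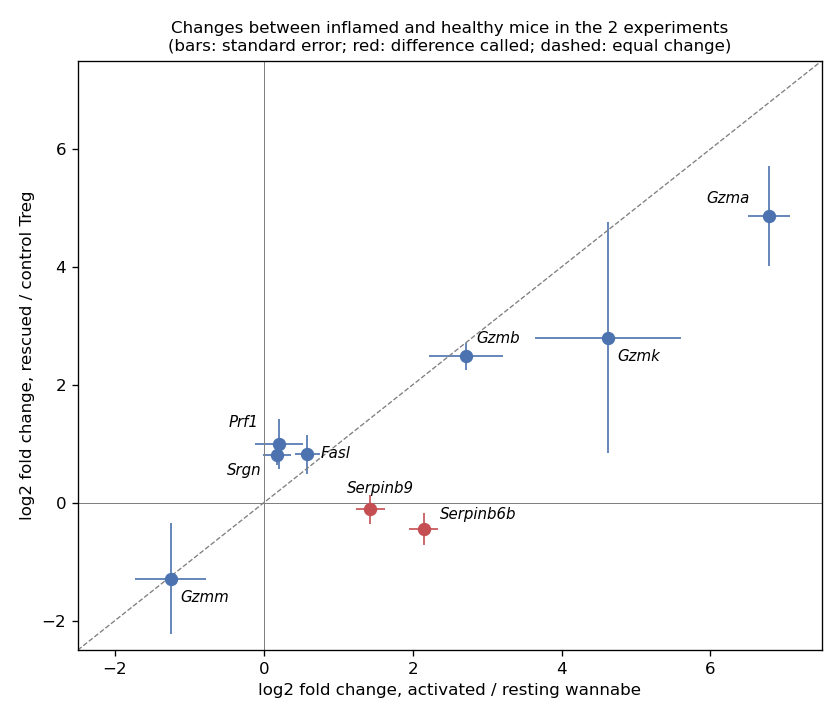
Log2 fold change in activated over resting “wannabes” (horizontal) and in rescued over control Treg cells (vertical) for the 9 members, with standard errors as bars and a dashed line of equal change. *Serpinb9* and *Serpinb6b*, in red, lie below the line at 1.43 and 2.15 on the horizontal and -0.11 and -0.45 on the vertical axis, and *Gzmb* lies near the line at 2.72 and 2.48. The *Gzmk* point is a fitted value that depends on how counts of 0 are treated.

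The level of *Gzmb* relative to its inhibitor followed from these changes. The ratio of *Gzmb* to *Serpinb9* in CPM per kilobase was 5.78, 4.30 and 5.29 in control Treg cells, 46.2, 33.7 and 19.2 in rescued Treg cells and 10.5 and 14.6 in male “wannabes”. These 3 groups did not overlap, and rescued Treg cells were highest. In the females it was 6.98, 1.85 and 1.39 in resting and 6.81 and 7.66 in activated “wannabes”, and resting replicate 1 lay within the activated range. The exact two-sided permutation test gave p = 0.1 for rescued against control Treg cells, the smallest p that 3 libraries against 3 allow, and p = 0.3 for activated against resting (0.16 and 0.343 after Benjamini-Hochberg adjustment over the 16 ratio and share tests).

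The ratio of *Gzmb* to *Srgn* was 0.225, 0.201 and 0.159 in control Treg cells and 0.624, 0.646 and 0.595 in rescued Treg cells. It was 0.272 and 0.467 in male “wannabes”, between the Treg groups, and the 3 groups did not overlap. Activated “wannabes” had ratios of 0.324 and 0.476 and resting ones 0.134, 0.0334 and 0.0482. Against *Prf1*, the mean ratio with its SD was 49.1 ± 22.7 for rescued Treg, 18.1 ± 6.15 for control Treg, 30.8 ± 1.50 for male “wannabe”, 38.3 ± 4.06 for activated “wannabe” and 7.44 ± 5.44 for resting “wannabe” libraries. The Treg groups did not overlap each other, nor did the female groups, but the male “wannabes” lay within the range of rescued Treg cells (exact permutation p = 0.4). By the exact permutation test each of these 4 within-experiment comparisons of inflamed with healthy cells had p = 0.1, the smallest possible value.

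**Figure D4:**
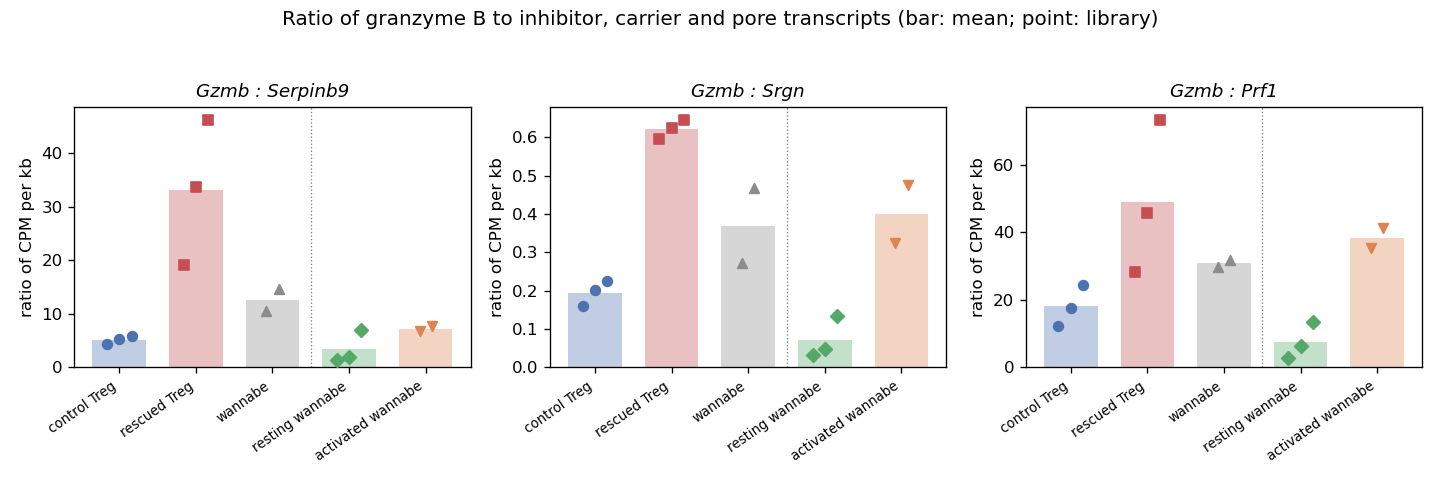
Ratio of *Gzmb* to *Serpinb9*, *Srgn* and *Prf1* in CPM per kilobase, with a point for each library and a bar from 0 to the mean of each group, males left and females right of the dotted line. The 3 rescued Treg libraries are the highest in the *Gzmb* to *Serpinb9* panel, at 19.2 to 46.2, and the resting “wannabes” include the lowest points of all 3 panels.

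Genes that act with the members were counted in 8 lists of 117 genes. Of 90 that passed the filter in males, 10 were higher and 6 lower in rescued than in control Treg cells, with a median log2 fold change of 0.13. Of 86 in females, 15 were higher and 11 lower in activated than in resting “wannabes”, with a median of 0.01. These counts stand beside 2.30% and 22.5% of all genes called. Against male “wannabes”, 12 of 90 were higher and 9 lower in rescued Treg cells (median 0.09), beside 10.0% and 4.06% of all genes, and 19 higher and 13 lower in control Treg cells (median 0.01), beside 9.92% and 6.27%. The lists were chosen with earlier results of these data known.

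Among 15 genes of granzyme processing and granule proteins, 13 were tested in males and 12 in females. *Nkg7*, a granule membrane protein needed for degranulation, rose in rescued over control Treg cells (log2 1.73, SE 0.33, adjusted p = 0.0229) and in activated over resting “wannabes” (log2 4.21, SE 0.21, adjusted p = 0.000273). The second change was larger, by 2.46 on the log2 scale (adjusted p = 0.0224). *Cst7*, the gene of cystatin F, an inhibitor of the cathepsins that process granzymes, rose in both as well (log2 0.92 and 1.50, adjusted p = 0.018 and 0.000822). *Igf2r*, whose product is a mannose 6-phosphate receptor that can bind granzyme B, fell by 1.74 on the log2 scale in rescued Treg cells (adjusted p = 0.00277), and the cathepsin gene *Ctsb* fell by 0.68 in activated “wannabes” (adjusted p = 0.0209) and differed in its change between the experiments (log2 1.15, adjusted p = 0.0144). No further gene of this list was called in these comparisons.

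Of 21 granule exocytosis genes tested in each experiment, *Sytl3*, a synaptotagmin-like Rab27 effector, rose in rescued Treg cells (log2 1.96, SE 0.31, adjusted p = 0.00964) and in activated “wannabes” (log2 1.80, SE 0.34, adjusted p = 0.0137). The syntaxin gene *Stx11* also rose in rescued Treg cells (log2 0.74, adjusted p = 0.0418), and none of the list fell. In activated “wannabes” *Sytl1* (log2 0.68) and *Unc13d* (log2 0.34) also rose, while *Rab11a* (log2 -0.33) fell. Against male “wannabes”, rescued Treg cells had 6 genes of this list higher, led by *Vamp2* (log2 2.51), *Sytl2* (log2 2.42) and *Arl8b* (log2 1.70), and 1 lower, *Lyst* (log2 -0.88), beside 10.0% of all genes higher and 4.06% lower. Control Treg cells had 8 higher and 2 lower than “wannabes”, led by *Sytl2* (log2 2.56), *Vamp2* (log2 1.89) and *Arl8b* (log2 1.58) on the higher side, with *Sytl3* (log2 -1.98) and *Lyst* (log2 -0.93) lower, beside 9.92% and 6.27% of all genes.

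Few other serpins were detectable. Of 17 other clade B serpin genes 3 were tested in males and 2 in females, and *Serpinb1a*, an inhibitor of neutrophil serine proteases, fell by 2.33 on the log2 scale in activated “wannabes” (adjusted p = 0.0245), opposite in direction to *Serpinb9* and *Serpinb6b*. *Serpinb6a*, the close relative of *Serpinb6b*, was tested in both experiments and was not called (log2 0.13 in rescued over control Treg cells, 0.10 in activated over resting “wannabes”). Of 10 further serpins, 6 were tested in males, and *Serpina3f*, a member of the expanded mouse antichymotrypsin cluster, was higher in rescued than in control Treg cells (log2 3.15, SE 0.51, adjusted p = 0.0114) and lower in control Treg cells than in “wannabes” (log2 -3.68, adjusted p = 0.00177). Higher in control Treg cells than in “wannabes” were *Serpinc1* (log2 2.84, adjusted p = 0.0102) and *Serpini1* (log2 1.33, adjusted p = 0.0172). In the females the *Serpina3f* difference was -0.02 (adjusted p = 0.977). Of 5 tested there 1 was called, *Serpinc1* (log2 1.99), which also differed in its change between the experiments (log2 -3.54, adjusted p = 0.0247).

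Of 14 death receptor genes, the receptor gene *Fas* fell by 1.30 on the log2 scale in rescued against control Treg cells (adjusted p = 0.0079), as did the cytokine gene *Lta* by 1.54 (adjusted p = 0.00964). In activated “wannabes” the adaptor gene *Fadd* rose (log2 0.65), and 4 fell, led by *Tnfrsf1a* (log2 -0.69), *Tnfrsf1b* (log2 -0.68) and *Traf2* (log2 -0.38), of 14 tested and beside 11.3% of all genes higher and 11.2% lower. *Fas* differed in its change between the experiments (log2 -1.71, adjusted p = 0.0119), as did *Lta* (log2 -1.73, adjusted p = 0.0136). Compared with male “wannabes”, 4 of these 14 were higher and 1 lower in rescued Treg cells, beside 10.0% and 4.06% of all genes. In control Treg cells 4 were higher and 0 lower, beside 9.92% and 6.27%. Among the granzyme substrate and caspase genes, *Hmgb2* (log2 1.66) and *Bid* (log2 1.00), whose product granzyme B cuts, rose in activated over resting “wannabes”, and 0 of 16 tested fell.

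Transcription factors of cytotoxic genes were called in both directions. *Tbx21*, the gene of T-bet, rose in rescued over control Treg cells (log2 2.27, SE 0.42, adjusted p = 0.0192), in rescued Treg cells over male “wannabes” (log2 2.88, adjusted p = 0.00355) and in activated over resting “wannabes” (log2 3.10, adjusted p = 0.000466). Of 16 tested, 4 rose and 3 fell in rescued against control Treg cells, beside 1.43% and 0.864% of all genes. *Nfil3* (log2 3.05) and *Id2* (log2 1.46) also led the rise, and *Bach2* (log2 -2.08), *Tcf7* (log2 -0.98) and *Lef1* (log2 -0.64) fell. Against male “wannabes”, 2 of 16 were higher in rescued Treg cells and 4 lower, led by *Tcf7* (log2 -2.05), *Bhlhe40* (log2 -1.76) and *Id2* (log2 -1.53), beside 10.0% and 4.06% of all genes. In activated “wannabes” *Hopx* (log2 0.79) also rose, and *Zeb2* (log2 -2.35), *Irf4* (log2 -1.02) and *Bach2* (log2 -0.76) fell. There 2 of 16 were higher and 3 lower, beside 11.3% and 11.2% of all genes. *Nfil3*, *Id2* and *Prdm1*, the gene of Blimp-1, differed in their change between the experiments, by 3.55, 1.80 and 2.27 on the log2 scale (adjusted p = 0.0227, 0.012 and 0.0299), and *Tcf7* and *Bach2* by -1.01 and -1.31 (adjusted p = 0.0145 and 0.0152), so that 3 were higher and 2 lower beside 0.803% and 0.730% of all genes.

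The genes whose pattern was most like that of *Gzmb* were sought among 12963 genes tested in both experiments, by the mean of Pearson's r of log2 CPM over the 8 male and over the 5 female libraries. The highest was *Itgae*, which encodes the integrin chain CD103, with r = 0.954 in males and 0.936 in females, followed by *Mlycd* (0.904 and 0.963) and *Hist1h3c* (0.903 and 0.962). Mean *Itgae* normalized counts were 33448 in rescued Treg cells, 16692 in male “wannabes”, 8623 in control Treg cells, 8642 in activated and 1620.3 in resting “wannabes”. For *Gzma* the leading genes were *AA467197* (r = 0.964 and 0.997), *Rab19* (0.959 and 0.983) and *Pik3ap1* (0.947 and 0.984). The points of each correlation share the group structure of the libraries, and these are descriptions without a test.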

How the data were processed

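RNA of sorted cells was converted to amplified cDNA with a SMART-Seq v4 low-input kit and sequenced. Per the study's methods, the authors aligned reads to GRCm38 with STAR 2.7.3a, realigned them with GATK, counted reads per gene in R and used DESeq2 1.28.1. The annotation and the strand setting of the counting were not given in the sources used here. The deposited values are raw counts per gene in 2 tables, of 8 male and 5 female libraries. The male columns are named for sort markers, and those named GFP and Thy1 were assigned to rescued Treg cells and “wannabes” from the sort gates in the study's methods. The series text gives the numbers of resting and activated libraries the other way round, and the sample titles were followed. Rows without a gene name, 4 in each table, held 0.00353% to 0.00841% of counts and were left out. Amplification was not corrected with molecular identifiers, so counting intervals and floors cover counting error only.

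Counts were analysed in R 4.3.3 with edgeR 4.0.16, in which genes were filtered by expression (14925 kept in males, 13166 in females, 15201 over all 13 libraries), scaled by TMM and tested by quasi-likelihood F tests, and p-values were adjusted after Benjamini and Hochberg over all genes tested. The male groups shared a fit, the female groups another, and the difference of the changes a fit over all libraries. Exon lengths were from GENCODE M21, which may differ from the counted gene models. Ratios were compared with exact two-sided permutation tests. Every pair of libraries within a group differed by more than sampling noise. The tests were checked on simulated data. All members are named in the text, of each of the 8 related lists at most the 3 called genes with the largest change in a direction and comparison, and of similar genes the 3 with the highest mean correlation. Some genes that this rule would name are not reported here. *Serpinb6a*, the markers and the uncalled values of list genes were named after their values were seen. The members and lists were chosen with earlier results of these data known. Alternatives were DESeq2 1.42.0, its size factors, no filter, a filter on a mean count over 100, fits of only the groups compared, the replicate number as a block, coding lengths and each library left out.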

Additional observations from a re-analysis of the deposited data

Results flagged for a closer look

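*Serpinb9* and *Serpinb6b* stood out because their change between cells of inflamed and of healthy mice differed between the experiments by a direct test. The change in rescued over control Treg cells less the change in activated over resting “wannabes” was -1.53 on the log2 scale for *Serpinb9* (95% interval -2.26 to -0.79) and -2.58 for *Serpinb6b* (95% interval -3.32 to -1.84). With edgeR's quasi-likelihood test the adjusted p was 0.0452 and 0.00267. The *Serpinb9* call was lost without any of 8 of the 13 libraries (adjusted p up to 0.241) and with the replicate number as a block (0.0635), and the *Serpinb6b* call was kept without each of the 13. Both genes were higher in 2 of 2 activated libraries than in 3 of 3 resting ones. *Serpinb6b* was lower in 3 of 3 rescued than in 3 of 3 control Treg libraries, and *Serpinb9* overlapped there.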

How the results depend on the processing

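Under the alternatives other than leaving out a library, 237 fitted values of members kept their direction and their side of the threshold, 3 now passed, 1 no longer passed and 1 turned direction. When each library was left out in turn, 337 were kept, 20 calls were lost, 2 were gained and 19 values turned direction. The related genes were not tested without single libraries. DESeq2 called more genes than edgeR, 1195 against 343 for rescued against control Treg, 3335 against 2105 for rescued Treg against “wannabe”, 3767 against 2416 for control Treg against “wannabe” and 805 against 233 for the difference of the changes. For rescued against control Treg, no filter gave 612 and a fit of only both groups 580 genes. DESeq2 called *Fasl* in control Treg cells against “wannabes” (adjusted p = 0.016) and in activated over resting “wannabes” (adjusted p = 0.0172), as did the filter on a mean count over 100 for the latter (adjusted p = 0.0462). With the replicate number as a block the counts were 426, 1968, 2304, 2045 and 238 in the order of the comparisons above with activated against resting as the fourth, and 1 member, *Serpinb6b*, was called in the difference of the changes, where *Serpinb9* did not pass (-1.72, adjusted p = 0.0635). The uncalled *Gzmm* difference was 0.12 under the block. Same-numbered libraries did not deviate together (correlations of -0.027 to 0.084 in males and -0.029 to -0.017 in females), so the numbers were not taken as pairs. Leaving out each library gave, with members counted over all 9, 114 to 598 genes and 1 to 3 members for rescued against control Treg, 0 to 1 members for rescued Treg against “wannabe”, 1549 to 2423 genes and 2 to 3 members for control Treg against “wannabe”, 751 to 3216 genes and 3 to 6 members for activated against resting, and 44 to 430 genes and 1 to 2 members for the difference of the changes. The lowest count was found without control replicate 1 (114), control replicate 2 (1549), activated replicate 1 (751) and activated replicate 2 (44). Uncalled log2 values that turned direction when a library was left out ranged, for rescued against control Treg, from -0.26 to 0.083 for *Serpinb9*. For rescued Treg against “wannabe” they ranged from -1.61 to 0.58 for *Gzmm* and -0.32 to 0.022 for *Serpinb9*. For control Treg against “wannabe” they ranged from -6.79 to 5.51 for *Gzmk*, -0.32 to 1.87 for *Gzmm*, -0.14 to 0.070 for *Serpinb9* and -0.30 to 0.18 for *Serpinb6b*. For activated against resting, *Prf1* ranged from -0.016 to 0.53. For the difference of the changes, *Gzmb* ranged from -0.96 to 0.058, *Gzmk* from -4.67 to 3.57 and *Gzmm* from -0.52 to 0.51. The causes of these changes were not tested. Where an arm was left with 1 library, that library was assumed to vary like the other groups. With 2 or 3 libraries a group, differences of members with few counts, *Gzmk* and *Gzmm*, were poorly bounded.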
